A study of Mus musculus with 48 samples.

Results

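The 10 genes described here belong to the interleukin-6 and STAT3 response of reactive glia: *Il6ra*, *Il6st*, *Osmr*, *Stat3*, *Socs3*, *Bcl3*, *Cebpd*, *Lcn2*, *Timp1* and *Serpina3n*. They were chosen by symbol, not by a measured value, and all 10 were found among the 19601 protein-coding genes of the batch-corrected files and among the 14839 genes that passed edgeR's filter on low counts. The substantia nigra (SN) of 48 male C57BL/6J mice, 12 per group, was profiled by bulk RNA-seq after α-synuclein monomer (the control) or α-synuclein preformed fibrils (PFFs) had been injected into one striatum. Mice of either injection breathed 21% or 11% O2 and were killed 90 to 98 days after the injection, which was given at an age of 121 days. The sources differ on the timing of the low O2, which covered either the whole time after injection or only its later part. The groups that the paper lists for the later start include no monomer mice at 11% O2. The 42 mice in the filtered files were 11 monomer and 12 PFF mice at 21% O2, and 9 monomer and 10 PFF mice at 11% O2. They fell into 3 batches labelled by the submitters, of which only batch 1 held all 4 groups. Batch 2 had no monomer mice at 11% O2 and batch 3 had no monomer mice at 21% O2. The injection is focal and every control received monomer, so no group was left without injection. Each of the 42 mice had 12902996 to 17120921 counts on genes before correction. The tissue is the whole SN, and the dopamine neuron markers *Th* (96.1 to 1079 TPM) and *Slc6a3* (263 to 1932 TPM) were present in every mouse but varied widely.

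Interleukin-6 and its relatives (leukaemia inhibitory factor, oncostatin M, ciliary neurotrophic factor and others) signal through receptors that share the subunit gp130. Receptor binding activates Janus kinases, which phosphorylate STAT3, and STAT3 then enters the nucleus and switches on target genes, among them *Socs3*, whose product blocks the kinases. In the injured brain, astrocytes use this pathway when they become reactive, and *Lcn2*, *Timp1* and *Serpina3n* are among the transcripts most often used to mark that state.

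STAT dimers bind the palindrome TTCNNNGAA, so RefSeq promoter windows on GRCm38.p6, which run from 250 bases before to 50 bases after a gene's start, were searched for it. Windows were matched by symbol for 9 of the 10 genes, all but *Cebpd*. The motif lay in 1 of these 9 windows, that of *Socs3*, and in 8.30% of all 32851 windows. The hypoxia response core ACGTG, searched on both strands, lay in 2 of the 9 windows, those of *Il6ra* and *Timp1*, and in 19.6% of all windows. The 3 matches are shown with 10 bases on either side, 5′ to 3′ on the strand of the gene, because they are the only places in these windows where the letters of either factor's motif occur; capitals mark the motif.
*Socs3* (chr11:117969502-117969530, minus strand): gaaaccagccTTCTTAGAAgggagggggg
*Il6ra* (chr3:89913205-89913229, minus strand): gctgtgtgtcACGTGcatgtgggaa
*Timp1* (chrX:20870074-20870098, plus strand): actgtgcatgACGTGgagctggggg
The *Socs3* motif began 154 bases before the RefSeq start, in an intron of a non-coding transcript of the gene in GENCODE vM21. The *Il6ra* and *Timp1* motifs began 23 and 82 bases before the start, upstream of every annotated transcript of their gene. In *Il6ra* the letter before the capitals completes a palindrome, so both strands match there. These are matches of letters and say nothing about binding.

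The level of each gene, in TPM (a unit scaled to transcript length, so that genes can be compared), set the genes far apart. *Il6st*, which encodes gp130, had a median of 73.1 TPM over the 42 mice, *Serpina3n* 58.0 TPM and *Stat3* 30.8 TPM. The ranges of *Il6st* (56.0 to 92.6 TPM) and *Serpina3n* (42 to 80.6 TPM) overlapped, and that of *Stat3* (23.8 to 35.8 TPM) lay below both. Next came *Timp1* (5.53 TPM), *Il6ra* (4.74 TPM), *Cebpd* (4.63 TPM), *Socs3* (2.71 TPM), *Osmr* (1.88 TPM) and *Bcl3* (1.40 TPM), and each of these overlapped its neighbour in the order. *Lcn2* had the lowest median, 0.255 TPM, and the widest relative range, 0 to 12.6 TPM. In reads, *Il6st* had 2162 to 4238 counts per mouse, whereas *Socs3* had 16 to 53, *Timp1* 10 to 34 and *Bcl3* 7 to 27, so the folds of the last 3 rest on few reads.

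**Figure D1:**
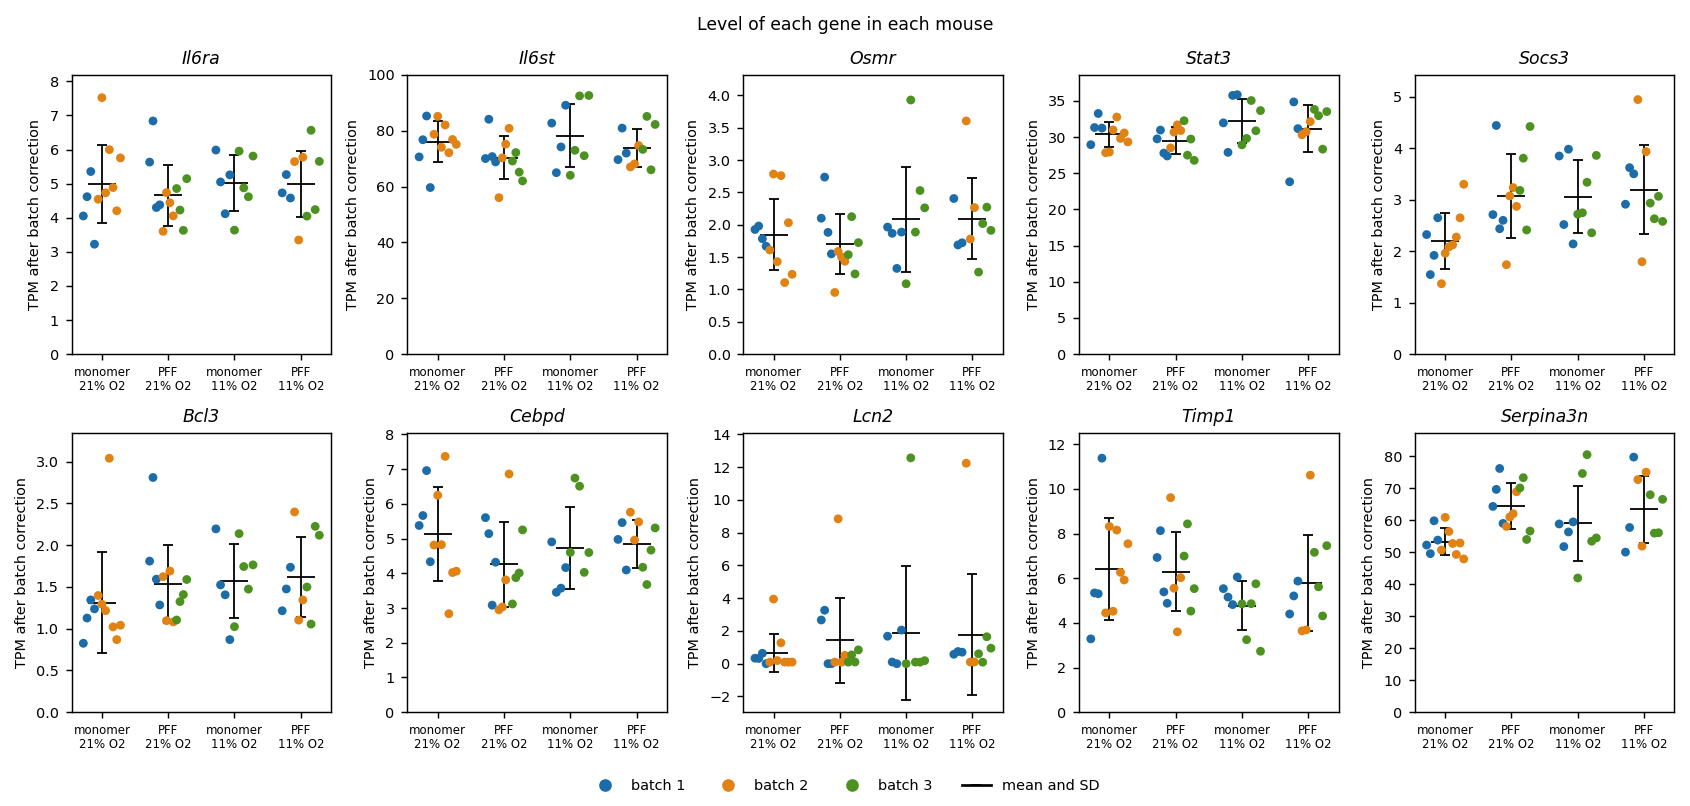
TPM after batch correction (y axis) of the 10 genes in each of the 42 mice, by group (x axis), with points coloured by batch and black bars for the group mean and SD. *Socs3* and *Serpina3n* sit lowest in the monomer mice at 21% O2 (means of 2.20 and 53.4 TPM), and *Lcn2* was highest in replicate 6 of each group (3.94 to 12.6 TPM).

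Between PFF and monomer mice at 21% O2, 2 of the 10 genes rose and none fell, where 3.7% of all tested genes were called, 2.29% higher and 1.41% lower. A gene was called where edgeR's quasi-likelihood test gave a Benjamini–Hochberg adjusted p under 0.05 and the log2 fold change was above 0.25 or below -0.25. The 2 were *Socs3*, the feedback inhibitor, and *Serpina3n*, a secreted serine protease inhibitor of reactive astrocytes and oligodendrocytes. The receptors, *Stat3* itself, both transcription factors and the other effectors did not pass. The median log2 fold change of the 10 genes was -0.01, with 5 above and 5 below 0, and that of all tested genes was 0.00085. DESeq2 called the same number of the 10, 2, and 2.78% of all genes, and 2 of the 10 against 22.4% of all tested genes had an unadjusted p under 0.05.

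*Socs3* (ENSMUSG00000053113.3, chromosome 11 of GRCm38 from 117966079 to 117970047, minus strand) had a lowest, median and highest TPM of 1.37, 2.12 and 3.30 in monomer mice at 21% O2, against 1.74, 2.97 and 4.44 in PFF mice. The groups overlapped, but 11 of 12 PFF mice lay above the monomer median and 3 lay above the highest monomer mouse. The means were 2.20 ± 0.539 (SD, n = 11) and 3.08 ± 0.814 TPM (SD, n = 12), and the log2 fold change was 0.50, with an SE of 0.153 and an adjusted p of 0.0345. This is 1.42-fold with a 95% interval of 1.15 to 1.75. Within batches, from the counts before correction, the change was 0.57 (SE 0.310) in batch 1 and 0.33 (SE 0.24) in batch 2, and neither batch alone called it. The adjusted p was 0.0976 when all 48 mice were fitted with a batch term, and 0.0642 with limma on log2(TPM + 1). Leaving out PFF replicate 2, 10 or 12, or monomer replicate 2, 5, 6, 7 or 9, also ended the call, with log2 fold changes of 0.44 to 0.51 and adjusted p of 0.0518 to 0.0763.

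*Serpina3n* (ENSMUSG00000021091.8, chromosome 12 from 104406729 to 104414329, plus strand) stood at 47.9, 52.8 and 61.0 TPM (lowest, median and highest) in monomer mice at 21% O2, against 54.0, 63.2 and 76.2 TPM in PFF mice. All 12 PFF mice lay above the monomer median, and 8 lay above the highest monomer mouse. The means were 53.4 ± 4.23 (SD, n = 11) and 64.5 ± 7.10 TPM (SD, n = 12), a rise of 0.29 on the log2 scale (SE 0.0802, adjusted p = 0.0195) or 1.22-fold with a 95% interval of 1.09 to 1.37. The change was 0.35 (SE 0.112) in batch 1 and 0.25 (SE 0.0914) in batch 2, each short of the threshold on its own. It was called in all 42 fits that left out a mouse. *Serpina3n* lies in a cluster of similar serpin genes, and how reads shared between them were split is uncertain.

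The 3 receptor genes were near their control levels with PFF at 21% O2. *Il6ra* (ENSMUSG00000027947.11, chromosome 3 from 89864059 to 89913196, minus strand), the interleukin-6 binding subunit, was at 4.99 ± 1.15 (SD, n = 11) in monomer and 4.65 ± 0.903 TPM (SD, n = 12) in PFF mice. *Il6st* (ENSMUSG00000021756.12, chromosome 13 from 112464070 to 112510086, plus strand) was at 76.0 ± 7.28 (SD, n = 11) and 70.4 ± 7.58 TPM (SD, n = 12). *Osmr* (ENSMUSG00000022146.12, chromosome 15 from 6813577 to 6874969, minus strand), the oncostatin M receptor subunit, was at 1.85 ± 0.544 (SD, n = 11) and 1.70 ± 0.47 TPM (SD, n = 12). Their log2 fold changes were -0.09 (95% interval -0.32 to 0.14), -0.10 (-0.22 to 0.03) and -0.11 (-0.46 to 0.25), with adjusted p of 0.697, 0.392 and 0.776. For *Il6ra*, batch 1 alone gave 0.49 (SE 0.227, adjusted p = 0.382), the opposite direction to the pooled value.

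Among the transcription factors, *Stat3* (ENSMUSG00000004040.16, chromosome 11 from 100885098 to 100939540, minus strand) had the narrowest interval, with a log2 fold change of -0.02 (95% interval -0.12 to 0.07). Its levels were 30.4 ± 1.79 (SD, n = 11) in monomer and 29.5 ± 1.85 TPM (SD, n = 12) in PFF mice at 21% O2. The phosphorylated, active form of the protein was not measured by this assay. *Bcl3* (ENSMUSG00000053175.17, chromosome 7 from 19808462 to 19822770, minus strand), a nuclear partner of NF-κB, had a value of 0.24 (-0.14 to 0.63). *Cebpd* (ENSMUSG00000071637.5, chromosome 16 from 15887286 to 15891031, plus strand), a C/EBP factor of the acute-phase response, had -0.25 (-0.54 to 0.04). *Timp1* (ENSMUSG00000001131.11, chromosome X from 20870166 to 20874735, plus strand), an inhibitor of matrix metalloproteinases, was at 6.41 ± 2.29 (SD, n = 11) in monomer and 6.30 ± 1.76 TPM (SD, n = 12) in PFF mice, a log2 fold change of 0.00052 (-0.34 to 0.34).

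Between monomer mice at 11% and at 21% O2, 1 of the 10 genes rose and none fell, where 7.23% of all tested genes were called, 4.68% higher and 2.55% lower. The one was again *Socs3*. Its lowest, median and highest TPM in monomer mice at 11% O2 were 2.14, 2.74 and 3.98. All 9 of these mice lay above the median of the 21% O2 monomer mice and 4 lay above their highest mouse. The mean was 3.06 ± 0.71 TPM (SD, n = 9), and the log2 fold change was 0.48 (SE 0.163, adjusted p = 0.0440), or 1.39-fold with a 95% interval of 1.11 to 1.75. Both groups were present only in batch 1, which alone gave 0.63 (SE 0.306, adjusted p = 0.267). The call held when uncorrected counts of all 48 mice were fitted by edgeR with a batch term (0.62, adjusted p = 0.0423). It ended with the same fit on the 42 mice (0.52, adjusted p = 0.0963), with no filter on low counts (adjusted p = 0.0558) and with limma on log2(TPM + 1) (adjusted p = 0.0662). It also ended without monomer replicate 1, 3, 7 or 11 at 11% O2 or replicate 2, 3, 5, 6, 7, 8 or 9 at 21% O2 (0.42 to 0.49, adjusted p of 0.0556 to 0.0965).

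The other 9 genes did not pass in monomer mice. DESeq2 called 1 of the 10 and 5.53% of all genes, and 2 of the 10 against 27.7% of all tested genes had an unadjusted p under 0.05. *Timp1* had the next smallest p, with 4.78 ± 1.11 TPM (SD, n = 9) at 11% and 6.41 ± 2.29 TPM (SD, n = 11) at 21% O2, a log2 fold change of -0.41 (SE 0.199, unadjusted p = 0.0432, adjusted p = 0.165). *Serpina3n* was at 59.1 ± 11.8 TPM (SD, n = 9) at 11% O2, a change of 0.15 (95% interval -0.02 to 0.33), and its highest mice, replicates 6 and 7 at 74.7 and 80.6 TPM, were both in batch 3. *Stat3* had 0.09 (-0.01 to 0.19), *Bcl3* 0.27 (-0.14 to 0.68), *Osmr* 0.18 (-0.19 to 0.56), *Il6st* 0.05 (-0.09 to 0.18), *Il6ra* 0.01 (-0.23 to 0.26) and *Cebpd* -0.11 (-0.42 to 0.20). The median over the 10 genes was 0.12, with 8 above 0, and that over all tested genes was -0.006. The PFF comparison at 21% O2 and this one share the same 11 control mice, so a low level in those mice enters both.

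Between PFF and monomer mice at 11% O2, 0 of the 10 genes were called by edgeR, by DESeq2 or by limma on log2(TPM + 1), and 0 had an unadjusted p under 0.05. Among all tested genes, edgeR called 0% and DESeq2 0.0051%, and 3.92% had an unadjusted p under 0.05. *Socs3* was at 3.19 ± 0.863 TPM (SD, n = 10) in PFF and 3.06 ± 0.71 TPM (SD, n = 9) in monomer mice, which on the log2 scale was a difference of 0.08 (95% interval -0.25 to 0.40). *Serpina3n* was at 63.4 ± 10.4 TPM (SD, n = 10) in PFF mice, a change of 0.11 (-0.06 to 0.29). Of the others, *Timp1* had 0.29 (-0.12 to 0.71) and *Lcn2* -0.08 (-1.80 to 1.64). *Bcl3*, *Cebpd*, *Osmr* and *Il6ra* lay between 0.0019 and 0.05, *Stat3* at -0.03 and *Il6st* at -0.07.

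Between PFF mice at 11% and at 21% O2, 0 of the 10 genes were called by edgeR, DESeq2 or limma on log2(TPM + 1), and 0 had an unadjusted p under 0.05, where 0.58% of all tested genes were called by edgeR (0.438% higher and 0.142% lower) and 0.592% by DESeq2, and 10.7% had an unadjusted p under 0.05. *Socs3* differed by 0.05 (95% interval -0.25 to 0.35) and *Serpina3n* by -0.02 (-0.19 to 0.14). *Osmr* had the smallest p, with 2.09 ± 0.630 TPM (SD, n = 10) at 11% and 1.70 ± 0.47 TPM (SD, n = 12) at 21% O2, a change of 0.31 (SE 0.179, adjusted p = 0.555). Within batches it was -0.23 in batch 1, 0.81 in batch 2 and 0.20 in batch 3. *Cebpd* had 0.19 (-0.10 to 0.49), *Il6ra* 0.10 (-0.13 to 0.34), *Bcl3* 0.08 (-0.30 to 0.46), *Stat3* 0.08 (-0.02 to 0.18) and *Il6st* 0.07 (-0.06 to 0.21). *Timp1* had -0.12 (-0.50 to 0.25), and *Lcn2* had the widest interval, 0.31 (-1.35 to 1.98).

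Whether the PFF response differed between 21% and 11% O2 was tested as an interaction, and 0 of the 10 genes were called by edgeR, DESeq2 or limma on log2(TPM + 1) (0 at an unadjusted p under 0.05). Of all tested genes, 2.14% were called by edgeR, 1.1% with a positive and 1.04% with a negative interaction, 1.94% were called by DESeq2, and 15.4% had an unadjusted p under 0.05. *Socs3* had the smallest p, with an interaction of -0.43 (95% interval -0.87 to 0.02, unadjusted p = 0.0616, adjusted p = 0.359). That of *Serpina3n* was -0.18 (-0.42 to 0.06). *Lcn2* had -1.21 (-3.77 to 1.36) and *Bcl3* -0.19 (-0.75 to 0.37), whereas *Cebpd* had 0.30 (-0.13 to 0.73) and *Timp1* 0.29 (-0.26 to 0.84). *Osmr* (0.13), *Il6ra* (0.09), *Il6st* (0.03) and *Stat3* (-0.0075) were nearer to 0. The smaller *Socs3* and *Serpina3n* changes at 11% O2 were therefore not shown to differ from those at 21% O2.

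**Figure D2:**
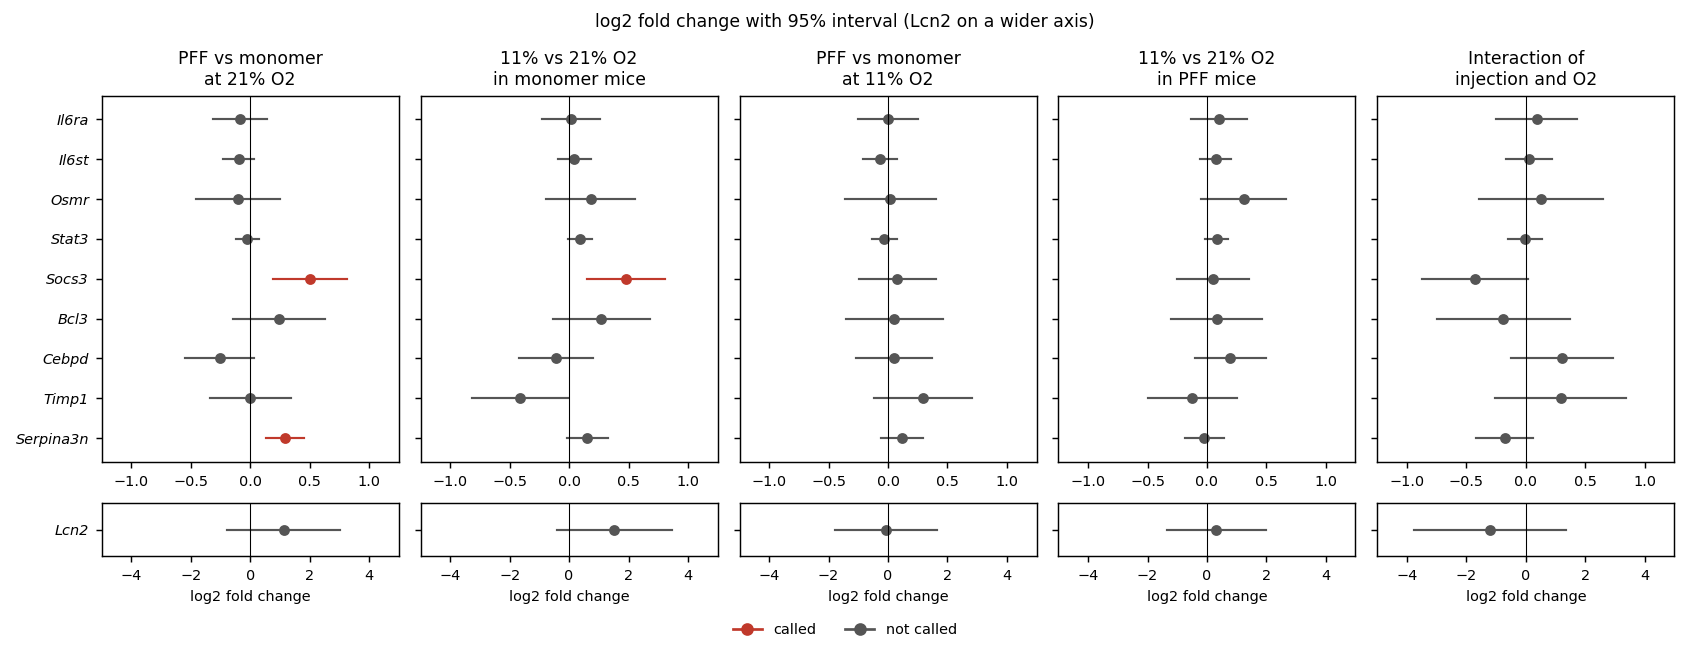
log2 fold change (x axis) with its 95% interval for each gene (y axis) in the 5 comparisons, in red where called, with *Lcn2* on a wider axis below. The 3 called values are *Socs3* at 0.50 and *Serpina3n* at 0.29 for PFF at 21% O2, and *Socs3* at 0.48 for 11% O2 in monomer mice.

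**Figure D3:**
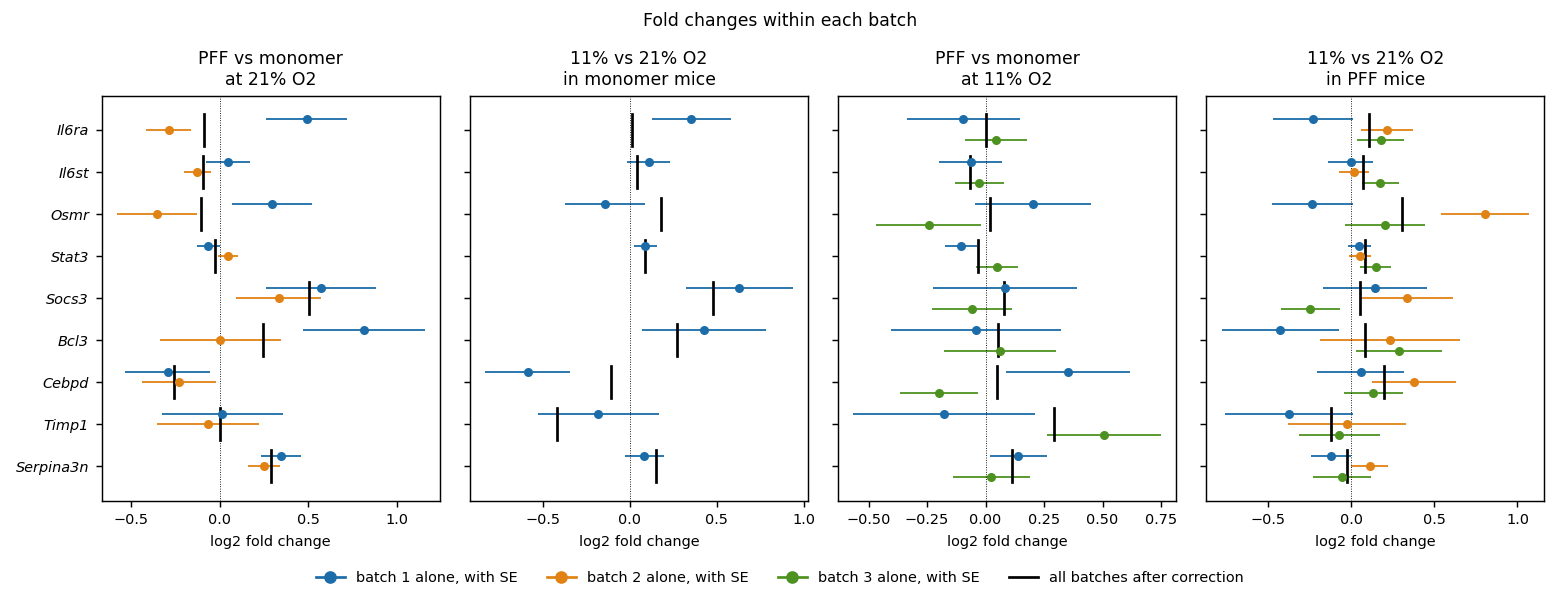
log2 fold change (x axis) of 9 genes (y axis; all but *Lcn2*) within each batch, from counts before correction, with its SE, and as a black line the value over all batches after correction. For PFF at 21% O2, *Socs3* (0.57 and 0.33) and *Serpina3n* (0.35 and 0.25) lie above 0 in both batches that hold the groups, whereas *Il6ra* lies on opposite sides of 0.

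*Lcn2* (ENSMUSG00000026822.14, chromosome 2 from 32384633 to 32388252, minus strand), which encodes the iron-siderophore carrier lipocalin-2, did not follow the groups but single mice. Of the 42 mice, 32 were under 1 TPM and 5 had no read. In each of the 4 groups, the highest mouse was the one numbered replicate 6 in the labels, a pattern noticed after the values were seen. It reached 3.94 TPM (42 counts) in monomer and 8.84 TPM (94 counts) in PFF mice at 21% O2, and 12.6 TPM (137 counts) in monomer and 12.2 TPM (119 counts) in PFF mice at 11% O2. These 4 mice came from batches 2, 2, 3 and 2, and the second highest mice of the same groups were at 1.27, 3.26, 2.05 and 1.64 TPM. In all, 2, 3, 3 and 2 mice of these groups were at 1 TPM or more. Batch correction moved some of the lower values by several fold: monomer replicate 4 at 11% O2 had 3 counts before and 20 after, PFF replicate 11 at 11% O2 had 6 and 18, and PFF replicate 8 at 21% O2 had 26 and 5. The counts of the 4 highest mice were the same before and after. The group means followed those mice, at 0.643 ± 1.15 (SD, n = 11), 1.42 ± 2.58 (SD, n = 12), 1.86 ± 4.09 (SD, n = 9) and 1.77 ± 3.70 TPM (SD, n = 10).

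No comparison called *Lcn2*. Its log2 fold change was 1.13 (95% interval -0.77 to 3.03) for PFF at 21% O2 and 1.52 (-0.41 to 3.46) for 11% O2 in monomer mice. The first became 0.18 without PFF replicate 6 and 2.20 without monomer replicate 6 at 21% O2, and the second became -0.33 without monomer replicate 6 at 11% O2. Neutrophils also store lipocalin-2, and the 7 neutrophil markers (*S100a8*, *S100a9*, *Ngp*, *Camp*, *Ly6g*, *Mpo* and *Mmp8*) had 3 to 44 counts in all per mouse, with a median of 8. In the 4 mice highest in *Lcn2* they had 12, 17, 19 and 10 counts, and none of the 7 passed the filter on low counts. *Osmr* was the highest of its group in 3 of these 4 mice, at 2.79, 3.93 and 3.61 TPM, and ranked 6 of 12 in the PFF mouse at 21% O2.

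Mice of a group were next compared by how far each gene lay from its group mean in log2 CPM, over all 42 mice. Of the 45 pairs of the 10 genes, 39 had a positive Pearson r, with a median of 0.243, and 7 pairs passed at an adjusted p under 0.05 over the 45 for both Pearson's r and Spearman's rho (100000 permutations within group, two-sided). All 7 were positive. How many pairs of other genes would pass was not tested, and all genes share the libraries and their depth. These counts are therefore a description and are not shown to be particular to the 10 genes. The largest of the 7 was *Osmr* with *Lcn2*, at r = 0.624 (adjusted p = 0.00112) and rho = 0.482 (adjusted p = 0.0150). It was 0.475 without the 2 mice farthest from the median of *Osmr* and 0.698 within group and batch. *Il6ra* and *Il6st*, which encode both subunits of the interleukin-6 receptor, had r = 0.607 (adjusted p = 0.00112) and rho = 0.553 (adjusted p = 0.00731), with 0.529 without the 2 farthest mice and 0.591 within group and batch.

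The remaining pairs that passed were *Osmr* with *Il6ra* (r = 0.565, rho = 0.538), *Il6ra* with *Lcn2* (r = 0.539, rho = 0.523), *Cebpd* with *Osmr* (r = 0.528, rho = 0.475), *Stat3* with *Il6st* (r = 0.508, rho = 0.552) and *Cebpd* with *Lcn2* (r = 0.437, rho = 0.479), by the same permutation test. For these 5, r without the 2 farthest mice was 0.548, 0.476, 0.548, 0.518 and 0.472, and r within group and batch was 0.612, 0.576, 0.475, 0.583 and 0.484. *Socs3*, *Timp1*, *Bcl3* and *Serpina3n* were in none of the 7 pairs. *Socs3* with *Serpina3n*, the 2 genes that rose with PFF, had an r of 0.24 across mice, and *Socs3* with *Stat3* had 0.09.

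**Figure D4:**
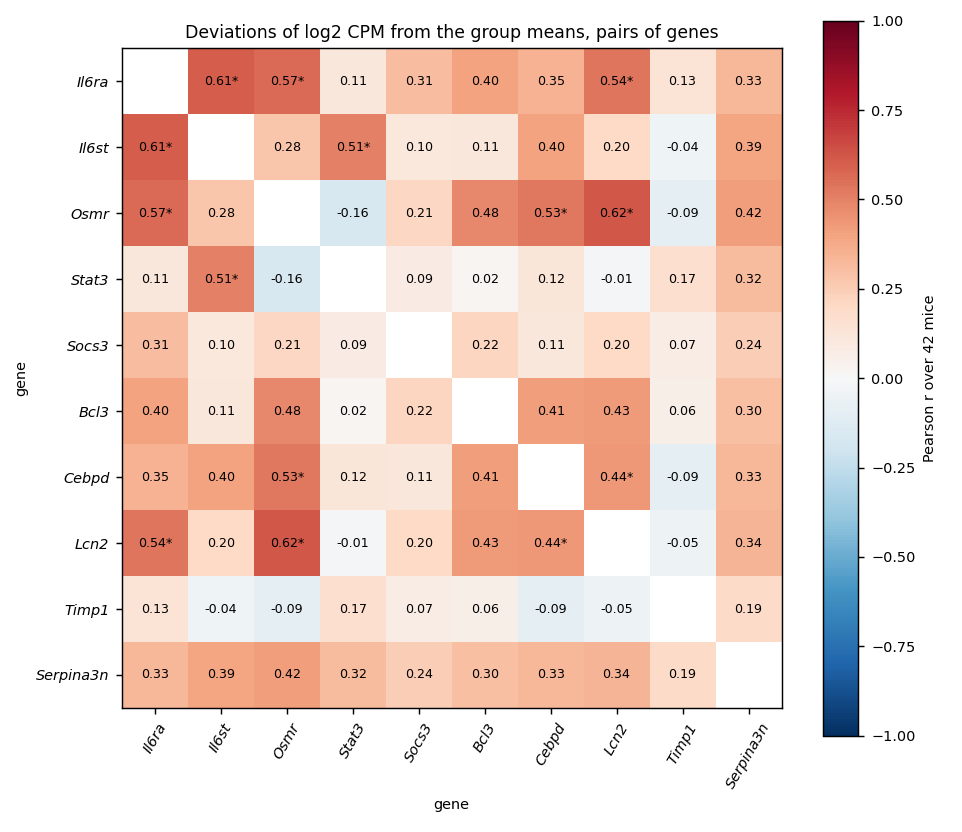
Pearson r between the genes (both axes) of deviations of log2 CPM from the group means over 42 mice, with an asterisk where r and rho both pass at an adjusted p under 0.05. The 7 marked pairs, from 0.44 to 0.62, join *Osmr*, *Lcn2*, *Il6ra*, *Cebpd*, *Il6st* and *Stat3*.

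Among 13212 genes outside the lists used here with a mean of at least 1 log2 CPM, those whose deviations were most like *Serpina3n* over the 42 mice were *S100a6* (r = 0.754), *C4b* (0.671), a complement component, and *Apod* (0.631), a lipid-binding apolipoprotein. For *Lcn2* they were *Ly6a* (0.695), *Scrg1* (0.671) and *Ly6c1* (0.635). *Osmr*, added after its values were seen, was most like *Ly6c1* (0.813) and *Ly6a* (0.773), which are typical of brain endothelial cells. *Timp1* was most like *Isg15* (0.57), *Ifit1* (0.530), both induced by interferon, and *Eif4e3* (0.515). For *Socs3* they were *Chek2* (0.554), *Bms1* (0.513) and *Twf2* (0.509). These are the highest of many values and share the libraries and their depth, so they are given as a description.

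The pathway around the 10 genes was read from a list of 54 others, of which 44 passed the filter on low counts. The ligands were scarce. *Il6* had 0 to 6 counts per mouse (median 0.313 TPM), with no read in 5 mice, *Osm* 0 to 11 (0.474 TPM), *Cntf* 1 to 12 (1.34 TPM) and *Il27* 0 to 7 (0.279 TPM), and none of the 4 passed edgeR's filter on low counts. *Osm* stood at 0.384 ± 0.222 (SD, n = 11) in monomer and 0.689 ± 0.245 TPM (SD, n = 12) in PFF mice at 21% O2, with overlapping ranges. With limma on log2(TPM + 1), which keeps such genes, it was called higher there (0.29, adjusted p = 0.0486). No other alternative called it, including DESeq2, edgeR with no filter on low counts and limma at a pseudocount of 0.1. *Lif* had a median of 1.05 TPM, *Il11* 1.34, *Clcf1* 3.00 and *Ctf1* 3.85 TPM, and none of the 4 was called in any comparison. *Lif* came nearest, lower at 11% O2 by -0.42 in monomer mice (adjusted p = 0.0727) and by -0.49 in PFF mice (adjusted p = 0.154).

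With PFF at 21% O2, 1 of the 44 genes was called, where 3.7% of all tested genes were. It was *Stat5a*, which rose and which encodes a STAT factor activated by many cytokine receptors. Its means were 2.93 ± 0.383 (SD, n = 11) in monomer and 3.61 ± 0.678 TPM (SD, n = 12) in PFF mice, a rise of 0.32 on the log2 scale (SE 0.0878, adjusted p = 0.0192). It was 0.03 in batch 1 and 0.55 in batch 2. The survival genes *Bcl2l1* (-0.19, adjusted p = 0.0104) and *Mcl1* (-0.14, adjusted p = 0.0254), both known STAT3 targets, had small negative values that passed the adjusted p but not the fold change threshold. The astrocyte filament gene *Gfap* had 0.18 (95% interval -0.22 to 0.57).

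In monomer mice at 11% against 21% O2, 5 of the 44 genes were called and all rose, where 7.23% of all tested genes were called and 4.68% were called higher. They were *Stat5a* (0.49, SE 0.0931, adjusted p = 0.000295), the receptor gene *Il4ra* (0.33, SE 0.0781, adjusted p = 0.00367), the protease inhibitor *A2m* (0.83, SE 0.202, adjusted p = 0.00425), the sphingosine phosphate receptor *S1pr3* (0.26, SE 0.0774, adjusted p = 0.0194) and the filament gene *Vim* (0.47, SE 0.165, adjusted p = 0.0478). *A2m* stood at 44.4 ± 18.2 TPM (SD, n = 9) at 11% and 25.0 ± 8.09 TPM (SD, n = 11) at 21% O2. In batch 1 alone the 5 values were 0.39, 0.34, 0.79, 0.29 and 0.29, and none was called there. *Stat5a*, *Il4ra* and *A2m* kept their call in all 42 fits that left out a mouse, *S1pr3* in 37 and *Vim* in 21. Without monomer replicate 1 at 21% O2, 3 of the 44 were called. *Bcl2l1* (-0.18, adjusted p = 0.0116) and *Mcl1* (-0.13, adjusted p = 0.0346) again had small negative values short of the fold change threshold. By the same edgeR test, *Rela* (0.19, adjusted p = 0.0340) and *Pias3* (0.17, adjusted p = 0.0392) had small positive values short of that threshold. *Cxcl1*, which encodes a chemokine that draws neutrophils, was below edgeR's filter, at 0.993 ± 0.96 (SD, n = 11) in monomer mice at 21% O2 and 0.268 ± 0.265 TPM (SD, n = 12) with PFF, and 0.212 ± 0.224 TPM (SD, n = 9) in monomer mice at 11% O2. It had 0 to 20 counts per mouse, and DESeq2, which keeps it, called it lower in both comparisons (-1.88, adjusted p = 0.0341, and -2.22, adjusted p = 0.0151).

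None of the 44 was called for PFF at 11% O2, for 11% O2 in PFF mice or for the interaction by edgeR, and 3, 2 and 7 had an unadjusted p under 0.05, where 3.92%, 10.7% and 15.4% of all tested genes did. DESeq2 called 0, 0 and 1, the last being *Stat5a*, whose interaction was -0.45 (SE 0.129, adjusted p = 0.0503) with edgeR. *Stat5a* and *Stat5b* are close paralogues, so a small share of their reads could be exchanged.

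**Figure D5:**
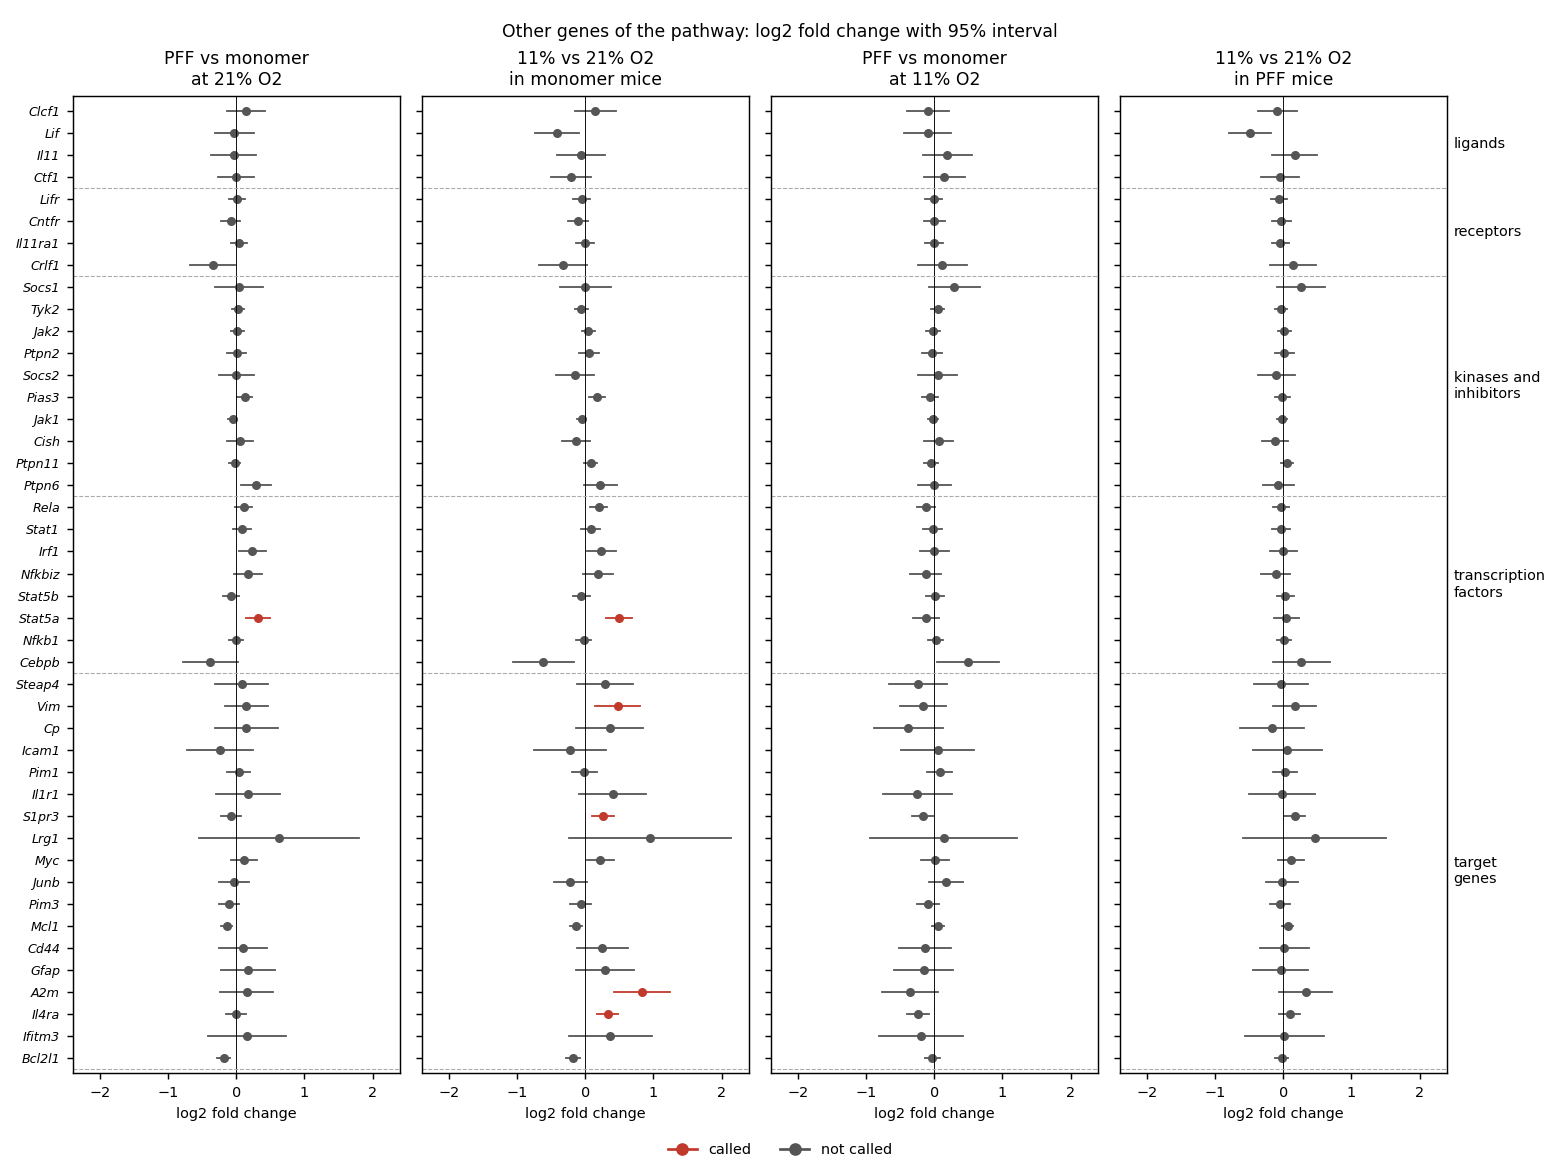
log2 fold change (x axis) with its 95% interval for the 44 other pathway genes that were tested (y axis, grouped by role), in red where called. *Stat5a* is red for PFF at 21% O2 (0.32), and *Stat5a*, *Il4ra*, *A2m*, *S1pr3* and *Vim* for 11% O2 in monomer mice (0.26 to 0.83).

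Markers of cell types and of stress were also called, both in the comparisons that called any of the 10 genes and in others. In bulk tissue, fewer cells of a type and less RNA per cell cannot be told apart. In monomer mice at 11% O2, all 6 endothelial markers (summed level 190.8 to 340.9 TPM per mouse, against 131.6 to 189.9 TPM at 21% O2), all 5 pericyte markers (245 to 568.1 against 184.9 to 307.3 TPM) and all 5 red cell genes (1058 to 5795 against 513.8 to 1404 TPM) were called higher, as were 2 of 6 oligodendrocyte markers. Of 10 glucocorticoid-responsive genes 5 were called lower there, and with PFF at 21% O2 4 were called lower and 1 higher, with *Sgk1* at -1.16 and -0.99. Among immediate early genes, *Fos* (-0.76) and *Nr4a1* (-0.44) were lower in monomer mice at 11% O2, and *Nr4a1* (-0.32) with PFF at 21% O2. With PFF at 21% O2, 1 of 6 endothelial markers (*Slco1a4*, 0.45) and none of the astrocyte, microglia, neuron, pericyte, leptomeningeal, choroid plexus, red cell, oligodendrocyte or dopamine neuron markers was called. All 8 microglia markers (0.02 to 0.26) and all 6 oligodendrocyte markers (0.01 to 0.20) had positive values there, and the oligodendrocyte gene *Mog* passed the adjusted p alone (0.20, adjusted p = 0.0284). The summed oligodendrocyte level was 7899 to 10901 TPM in monomer and 7929 to 10425 TPM in PFF mice at 21% O2. The summed astrocyte level was 2585 to 3823 TPM in monomer and 2668 to 3756 TPM in PFF mice at 21% O2, and the summed microglia level 1107 to 2035 and 1149 to 2212 TPM. Between PFF mice at 11% and at 21% O2, where none of the 10 genes was called, 2 of 6 endothelial and 2 of 5 pericyte markers were called higher. The interaction called 1 oligodendrocyte and 1 pericyte marker with a negative value and 1 glucocorticoid-responsive gene with a positive value. The part of these lists in the *Socs3*, *Serpina3n*, *A2m* and *Vim* values was not tested.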

How the data were processed

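SN RNA was profiled as poly(A) libraries from 48 mice. The authors removed ribosomal reads, aligned with STAR 2.7.5a to mm10, removed duplicates with Picard 2.21.9 and counted reads per GENCODE vM24 gene with featureCounts 2.0.1, assigning reads with several alignments to the primary one and using no strand option. They deposited raw counts and TPM for 48 mice and, after leaving out 6 as outliers in a principal components analysis and applying ComBat-seq, batch-corrected counts and TPM for 42. Correction can move values of low genes such as *Lcn2*. TPM before correction cover all genes, and those after it protein-coding genes alone.

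Corrected counts were tested with edgeR 4.0.16 (TMM, filterByExpr, the 4 groups in 1 fit). SE is the size of the log2 fold change over the square root of F. A call needed an adjusted p (Benjamini–Hochberg) under 0.05 and a log2 fold change of more than 0.25 in size. Each mouse is a replicate. On simulated data, 84 of 100 genes changed by 0.5 and 98 of 99 changed by 1 on the log2 scale were called for PFF at 21% O2, with 6 of 14600 unchanged genes called. For the interaction these were 74 of 100, 89 of 99 and 10 of 14601. The simulated counts had no batches and no batch correction, so these rates need not hold for the corrected counts. They were not split by level, so they do not give the rate for a low gene such as *Socs3*. Alternatives were DESeq2 1.42.0, its size factors, limma 3.58.1 on log2 TPM (pseudocount 1 or 0.1), counts before correction, single batches, no filter, the adjusted p alone and each mouse left out. Those for the other pathway genes were chosen after seeing the data. Precision is limited by 16 to 53 counts per mouse for *Socs3* and 0 to 137 for *Lcn2*. Positions are those of the same identifiers in GENCODE vM21 on GRCm38.

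All 10 genes are named in every comparison, other pathway genes where edgeR called them, the ligands by their level, and for *Socs3*, *Lcn2*, *Timp1* and *Serpina3n* the 3 genes most like each. Any other gene was chosen after its values were seen. The genes and lists were chosen with earlier results of these data known.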

Additional observations from a re-analysis of the deposited data

Results flagged for a closer look

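In groups of 10 mice or fewer, a mouse stood apart from its group by Dixon's criterion in 3 of 20 sets of values. These were *Lcn2* in replicate 6 of the monomer mice at 11% O2 (12.6 TPM, next 2.05 TPM), *Lcn2* in replicate 6 of the PFF mice at 11% O2 (12.2 TPM, next 1.64 TPM) and *Osmr* in that same PFF mouse (3.61 TPM, next 2.41 TPM). The criterion's rate of about 1 in 20 by chance assumes independent, normally distributed values. *Lcn2* was low and skewed, and the sets share the same mice, so that rate need not hold here.

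The 6 mice that the authors left out entered no comparison above except the fit of all 48 mice with a batch term. Of their 60 values for the 10 genes, 24 lay above the highest of the 11 monomer mice kept at 21% O2, and 14 lay above all 42 mice kept, all in TPM before correction, which still hold batch differences. Such counts were not made over all genes. These mice were left out as outliers in a principal components analysis, so the counts are not shown to be particular to the 10 genes. The 11 monomer mice were all in batches 1 and 2, whereas monomer replicates 8, 9 and 12 at 11% O2, with 13 of the 24 values, were in batch 3. Of the 13 mice kept in batch 3, 12 also lay above the highest of those monomer mice for *Serpina3n*, 7 for *Socs3*, 6 for *Stat3*, 3 for *Il6st* and 2 for *Osmr*. Against all kept mice of their own batch, 16 of the 24 values were higher, 6 of them in batch 3. Monomer replicate 10 at 21% O2 had 3.24 TPM of *Socs3*, 7.26 of *Cebpd* and 3.02 of *Osmr*. Among monomer mice at 11% O2, replicate 8 had 4.65 TPM of *Socs3*, 31.1 of *Stat3*, 2.79 of *Osmr*, 94.2 of *Il6st* and 67.9 of *Serpina3n*. Replicate 9 had 4.79 TPM of *Socs3*, 34.7 of *Stat3*, 95.3 of *Il6st* and 65.6 of *Serpina3n*. Replicate 12 had 3.57 TPM of *Socs3*, 35.6 of *Stat3*, 3.56 of *Osmr* and 89.7 of *Il6st*. Among PFF mice at 11% O2, replicate 5 had 5.32 TPM of *Socs3*, 34.0 of *Stat3*, 7.84 of *Cebpd*, 4.29 of *Osmr* and 93.0 of *Il6st*. Replicate 2, with only 3134594 counts, had 7.22 TPM of *Cebpd* (28 counts), 18.4 of *Lcn2* (50 counts) and 14.1 of *Timp1* (13 counts). That mouse was not high throughout, with 1.00 TPM of *Socs3* (3 counts), 22.2 of *Stat3*, 41.6 of *Il6st* and 29.5 of *Serpina3n*. For each of these genes it lay below all 42 mice kept. The highest kept monomer mouse at 21% O2 had 3.06 TPM of *Socs3*, 30.7 of *Stat3*, 6.68 of *Cebpd*, 2.34 of *Osmr*, 82.7 of *Il6st*, 55.1 of *Serpina3n*, 3.63 of *Lcn2* and 12.2 of *Timp1*.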

How the results depend on the processing

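Of the 10 genes, 2 were called for PFF at 21% O2. That count fell to 1 with 48 mice and a batch term and with limma at a pseudocount of 1 or 0.1, and to 0 in batch 1 or 2 alone. The 1 gene called for 11% O2 in monomer mice fell to 0 with no filter on low counts, with a batch term on the uncorrected 42 mice, in batch 1 alone and with limma under all 3 settings. The cause was not tested, beyond the smaller number of mice in single batches. The direction of the 3 called values was kept under every alternative. Leaving out each mouse gave 1 to 2 and 0 to 1 called genes, and 0 in the other comparisons. Values that were not called, counted by gene, comparison and alternative, changed sign in 56 of 571 cases. *Il6ra* for PFF at 21% O2 reversed to 0.49 in batch 1 alone (unadjusted p = 0.0463 from edgeR).

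Of the other pathway genes, the 1 called for PFF at 21% O2 became 2 with DESeq2 (*Stat5a* and, lower, *Cxcl1*), 2 with limma at a pseudocount of 1 (*Osm* and, lower, *Cxcl1*, without *Stat5a*), 2 in batch 2 alone (*Stat5a* and, lower, *Bcl2l1*), 3 with no filter (*Stat5a*, *Il27ra* and, lower, *Cxcl1*) or the adjusted p alone, and 0 in batch 1 alone, with only the groups compared and with limma at a mean TPM of at least 1. The 5 called for 11% O2 in monomer mice became 9 with the adjusted p alone, 3 with a batch term on the uncorrected 42 mice or limma at 0.1, and 0 in batch 1 alone. The interaction gave 1 with DESeq2. Leaving out each mouse gave 1 to 2, 3 to 7 and 0 to 1, and 0 in the others.

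Deviations of same-numbered mice had a median r of 0.00335 over 54 pairs (-0.40 to 0.56, 21 above 0.1, 39 pairs within a batch). The paper matched mice before assigning them, and the labels do not say that the number marks the match. Whether matched mice deviated together was therefore not tested. A block on replicate number gave 2, 0, 1, 0 and 0 called genes of the 10, and 1, 0, 6, 0 and 0 of the others. *Lcn2* was not tested in 42 mice before correction, in batch 1 or 3 alone or with only the groups compared where the filter removed it.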
